A study of Homo sapiens with 10 samples.

Results

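Vitamin D3 was compared in cocultures of colon cancer cells with macrophages on 4 arrays of the 10 in the series, chosen by their titles: the HCT116 and the Hke3 coculture, each labelled with and without vitamin D3. Each condition has 1 array, and no label tells of replicate cultures, so the lines are the 2 pairs. HCT116 is a colorectal carcinoma line, and Hke3 is a line derived from it. Both grew in MEM with serum, without touching THP1 cells that shared soluble factors with them, and THP1 is a monocytic leukaemia line kept in RPMI with serum that stands in for macrophages. Treatment with vitamin D3 is given as 24 hours, with no dose. The groups are therefore HCT116 with THP1, HCT116 with THP1 and vitamin D3, Hke3 with THP1, and Hke3 with THP1 and vitamin D3. The 4 arrays of the same lines without THP1, alone and with vitamin D3, give a comparison that shares no array with the cocultures. For the Hke3 monoculture titled as treated, 1 label field calls the cells untreated while its title, description and culture field give vitamin D3.

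Vitamin D3 is hydroxylated in steps to a hormone that binds the vitamin D receptor, VDR, which pairs with a retinoid X receptor and binds DNA at repeats of a short hexamer. CYP24A1, the 24-hydroxylase that degrades the hormone, is the classical target and rises in most cells that respond, colon cancer cells included. It is therefore the gene by which treated and untreated cultures are usually recognised.

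CYP24A1 was lower on both coculture arrays labelled with vitamin D3 than on their partners labelled without it, the opposite of both monoculture pairs. Its level, in log2 intensity, was 10.68 in the HCT116 coculture and 9.70 in the HCT116 coculture labelled with vitamin D3. In Hke3 the coculture stood at 12.25 and the coculture labelled with vitamin D3 at 10.89. The cells without THP1 gave 9.99 alone and 11.43 with vitamin D3 in HCT116, and 10.89 alone and 12.35 with vitamin D3 in Hke3. The coculture arrays labelled with vitamin D3 thus lay at or under the level of the same line alone and untreated, and those labelled without it lay above that level. The difference, labelled with minus labelled without, was -0.98 in HCT116 and -1.36 in Hke3 in coculture, against 1.44 and 1.45 in monoculture. THP1 cells themselves held CYP24A1 at 4.51 alone and 10.40 with vitamin D3.

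The sign of CYP24A1 puts the labels of these 4 arrays in doubt. An exchange of the vitamin D3 labels within both coculture pairs and a true fall of CYP24A1 under vitamin D3 in coculture would leave the same values, and they cannot be told apart with these arrays. Every difference below is therefore given between the array labelled with and the array labelled without vitamin D3. If the labels are exchanged, each coculture difference turns its sign, while the sizes, the counts of genes sharing a sign and the p-values within coculture stay as they are. CYP24A1 is measured by 1 probe set, and its coculture difference was -1.17 ± 0.10 (limma's moderated SE, n = 2 pairs; limma adjusted p = 0.379). That SE borrows from the spread of all genes and is not the SE of the 2 pairs alone. The difference in coculture minus that in monoculture was -2.62 ± 0.13 (limma adjusted p = 0.00238). With the labels of both coculture pairs turned, an alternative added after the values were seen, it was -0.28 (limma adjusted p = 0.66). Where 2 differences have opposite signs, turning 1 of them always brings them closer. The smaller value was therefore fixed by the signs and is no test of the labels.

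**Figure D1:**
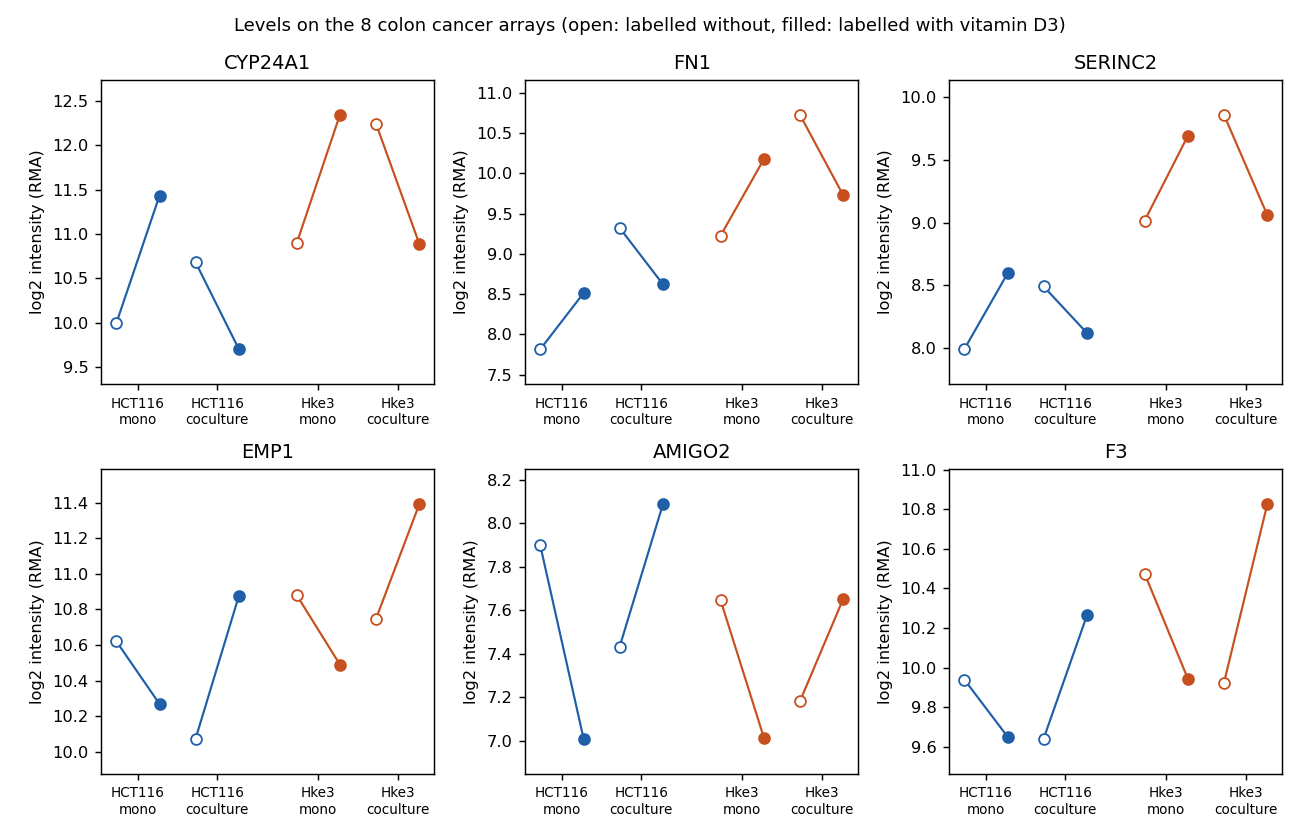
Levels of 6 genes on the 8 colon cancer arrays, in log2 intensity, with 1 point per array. Open points are labelled without and filled points with vitamin D3, and lines join the pairs of HCT116 (blue) and Hke3 (orange). In each panel the coculture pairs run opposite to the monoculture pairs, as for CYP24A1 at 10.68 and 9.70 in the HCT116 coculture.

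Across all genes, no difference passed the test in coculture. Of 19775 genes with a probe set of their own, 13246 exceeded 6.18 log2, the median of all values, on at least 1 colon cancer array and were tested. The limma fit of the 4 coculture arrays, with the cell line as a term and 1 residual degree of freedom, called 0 of 13246 genes (0%) at an adjusted p under 0.05, and 1582 had an unadjusted p under 0.05, of which 1063 (8.03%) were higher and 519 (3.92%) lower under the label. Fitted with a spread that follows the expression level and robustly, limma called 136 genes, 123 higher (0.929%) and 13 lower (0.0981%). On simulated data the first fit recovered 0% of genes changed 2-fold and 69.0% of genes changed 4-fold, so its count of 0 covers large changes at most. The simulated spreads were estimates from 1 residual degree of freedom, shuffled over genes. The shares recovered can therefore differ from those of the real fit. All values below that are not said to have passed are given as measured.

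The lines shared few of the larger differences. Past 1.5-fold the same way in both coculture pairs lay 6 genes (0.0453%), 4 higher (0.0302%) and 2 lower (0.0151%), and 0 genes lay past it in opposite ways. In single pairs, 45 genes (0.34%) passed 1.5-fold in HCT116 and 46 (0.347%) in Hke3. Past 2-fold the pairs held 0 and 5 genes. The differences had an SD over genes of 0.153 in the HCT116 coculture pair and 0.150 in the Hke3 pair, against 0.133 and 0.134 in monoculture. Over all tested genes the coculture differences of the lines had a Pearson r of 0.282 and a Spearman rho of 0.28, a description over genes, which are not independent. The monoculture differences had 0.09 and 0.056.

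**Figure D2:**
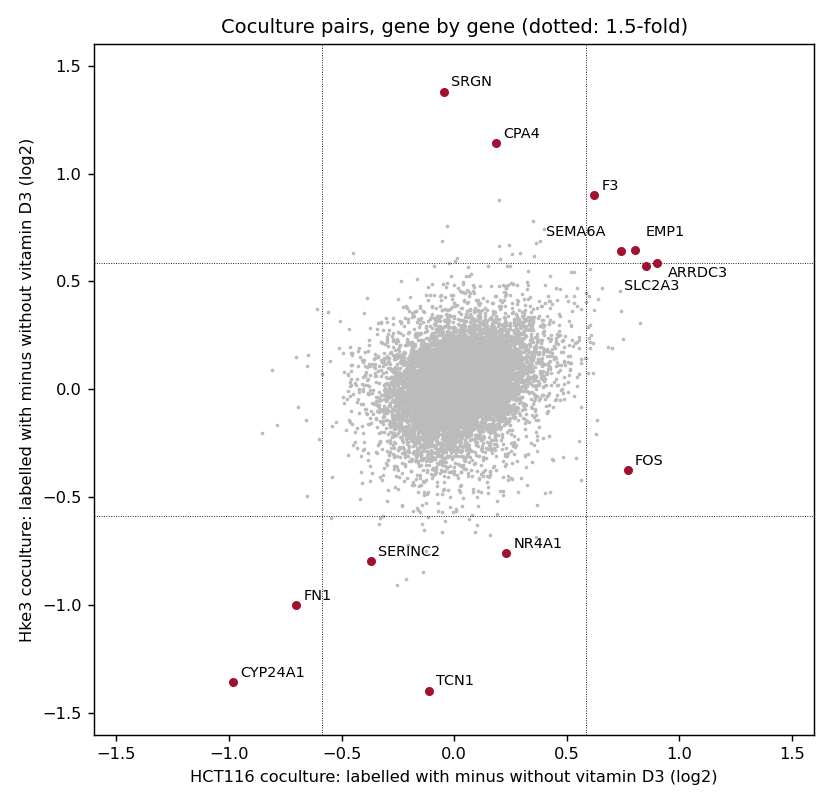
Differences of the 13246 tested genes in the HCT116 coculture pair (x axis) and the Hke3 coculture pair (y axis), both log2, labelled with minus without vitamin D3. Grey points are genes, red points are named genes, and dotted lines mark 1.5-fold. CYP24A1 and FN1 lie past both lines below 0, and F3, EMP1, SEMA6A and ARRDC3 above.

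Besides CYP24A1, the other gene past 1.5-fold below 0 in both pairs was FN1, which encodes fibronectin, an extracellular matrix protein that binds integrins. FN1 stood at 9.32 in the HCT116 coculture and 8.62 in the one labelled with vitamin D3, and at 10.73 and 9.73 in Hke3. All 4 coculture levels exceeded that of the same line alone, 7.81 in HCT116 and 9.23 in Hke3. The difference was -0.70 in HCT116 and -1.001 in Hke3, with a mean of -0.85 ± 0.09 (moderated SE, n = 2 pairs; limma adjusted p = 0.379). In monoculture it was 0.70 and 0.95. Of the other FN1 probe sets above background, 3 gave mean coculture differences from -0.848 to -0.814 and 1 gave -0.0512.

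The 4 genes past 1.5-fold above 0 in both pairs were EMP1, F3, SEMA6A and ARRDC3. EMP1, an epithelial membrane protein, stood at 10.07 and 10.88 in HCT116 and at 10.75 and 11.39 in Hke3, without and with the label. Its mean difference was 0.72 ± 0.07 (moderated SE, n = 2 pairs; limma adjusted p = 0.379). F3 is tissue factor, the receptor that starts blood coagulation. It stood at 9.64 and 10.26 in HCT116 and at 9.92 and 10.83 in Hke3 (mean difference 0.76 ± 0.09). SEMA6A, a transmembrane semaphorin, was dimmer, at 6.47 and 7.21 in HCT116 and 6.88 and 7.52 in Hke3 (0.69 ± 0.06). ARRDC3, an arrestin-domain protein that acts in receptor traffic, stood at 8.94 and 9.84 in HCT116 and at 9.41 and 10.00 in Hke3 (0.74 ± 0.09). Its monoculture differences were -0.09 and -0.02, so ARRDC3 was nearly level there, while EMP1 (-0.35 and -0.39) and F3 (-0.29 and -0.53) were lower with vitamin D3.

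Just inside that limit was ARRDC3, at 1.502-fold in Hke3, and just outside it SLC2A3, at 1.484-fold in Hke3 by its brightest probe set. SLC2A3, the glucose transporter GLUT3, stood at 6.63 and 7.48 in HCT116 and at 6.15 and 6.72 in Hke3 by that probe set. Its other probe sets passed 1.5-fold in both pairs, at 1.023 in HCT116 and 0.759 in Hke3 by the second and 1.007 and 1.068, past 2-fold in both, by the third. SLC2A3 was dim, with 6.15 under the 6.18 log2 limit. The second probe set peaked at 6.795 and the third at 7.270 on the colon cancer arrays. RP2, which regulates traffic of lipid-anchored proteins, differed by 0.61 in HCT116 and 0.56 in Hke3. NCEH1, a cholesterol ester hydrolase, gave 0.53 and 0.54, KAT2B, a histone acetyltransferase, 0.55 and 0.47, and ACSL4, which activates arachidonic acid, 0.47 and 0.46. These 4 genes had monoculture differences between -0.19 and 0.28. Among the dimmer genes with the smallest p below 0 were DUOX1, an NADPH oxidase that makes hydrogen peroxide (-0.42 and -0.51), XNDC1N (-0.65 and -0.49) and ANKRD20A5P (-0.55 and -0.60), all near 6.18 log2, where sizes are least certain.

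Promoters of 4 genes that carry these results are shown next, FN1 and F3 from the genes past 1.5-fold and ANKRD37 and BNIP3 from the hypoxia genes described further on. The promoters are RefSeq's on GRCh38.p14, the 250 bases before the start, 5′ to 3′ on the gene's strand. They are FN1 at chr2:215436069-215436318 (minus strand), F3 at chr1:94541760-94542009 (minus), ANKRD37 at chr4:185396591-185396840 (plus) and BNIP3 at chr10:131981924-131982173 (minus). In F3 the capitals mark a receptor hexamer, and in ANKRD37 and BNIP3 they mark the core letters of a hypoxia response element, on either strand.
FN1: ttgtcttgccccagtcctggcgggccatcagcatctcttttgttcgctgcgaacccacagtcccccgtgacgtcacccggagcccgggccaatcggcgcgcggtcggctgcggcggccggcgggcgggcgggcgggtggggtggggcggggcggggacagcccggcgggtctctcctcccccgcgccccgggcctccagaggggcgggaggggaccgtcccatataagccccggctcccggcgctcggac
F3: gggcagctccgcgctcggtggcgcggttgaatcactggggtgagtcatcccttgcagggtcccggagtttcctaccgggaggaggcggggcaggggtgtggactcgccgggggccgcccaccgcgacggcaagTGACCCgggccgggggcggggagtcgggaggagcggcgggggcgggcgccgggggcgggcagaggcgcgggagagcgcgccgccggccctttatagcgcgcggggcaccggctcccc
ANKRD37: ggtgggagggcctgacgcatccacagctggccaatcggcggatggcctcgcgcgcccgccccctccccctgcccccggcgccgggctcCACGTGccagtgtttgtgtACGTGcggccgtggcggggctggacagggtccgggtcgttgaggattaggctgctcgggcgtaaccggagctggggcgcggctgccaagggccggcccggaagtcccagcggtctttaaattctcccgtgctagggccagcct
BNIP3: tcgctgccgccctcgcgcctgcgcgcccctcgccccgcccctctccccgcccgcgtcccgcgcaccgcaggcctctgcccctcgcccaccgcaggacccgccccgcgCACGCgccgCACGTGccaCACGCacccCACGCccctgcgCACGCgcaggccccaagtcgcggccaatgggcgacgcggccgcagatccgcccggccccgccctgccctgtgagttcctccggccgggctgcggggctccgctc

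The receptor hexamers searched, on both strands, were AGGTCA or AGTTCA or GGTTCA or GGGTCA. Of the 12 genes past 1.5-fold in both coculture pairs or past the test of the difference between coculture and monoculture, 8 had a promoter in the reference, with 10 promoters in all. The promoters of CYP24A1, NRP1, SEMA6A and SUSD2 were not searched, so the shares leave these 4 genes out. A hexamer was in 2 of those 10 promoters (20.0%), against 33.8% of all 35116 promoters of the same length. A pair of hexamers in a row spaced by 3 bases, the arrangement the receptor pair is known to prefer, were in 0 of the 10 and in 0.065% of all. The FN1 window has no such letters, and the F3 window has GGGTCA on the opposite strand, at position -117 from the start.

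The hypoxia cores searched were ACGTG or GCGTG, on both strands, and an ACGTG on 1 strand can overlap one on the other. They were in 16 of the 18 hypoxia and glycolysis genes with a promoter (88.9%), against 47.4% of all genes, and in 85.2% of their 27 promoters against 43.2% of all. The promoters of BNIP3L, NDRG1, SLC2A3 and VEGFA were not searched. The members were listed as hypoxia genes, so these shares describe the list and are no result of these arrays. ANKRD37 has 3 matches and BNIP3 has 6. A match is a description of the letters in the window and shows neither binding nor a cause.

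The difference between the coculture and the monoculture response passed the test for 11 genes, and each of the 11 had opposite signs in the 2 settings. Opposite signs and agreement between the lines are favoured by the test itself, so neither is a separate result. The interaction was fitted with limma on the 8 colon cancer arrays, with 2 residual degrees of freedom, and its 11 calls are 0.083% of 13246 genes, 8 above 0 and 3 below. Below 0 with CYP24A1 were FN1 (-1.68 ± 0.14, limma adjusted p = 0.0275) and NRP1, a receptor for semaphorins and VEGF (-0.84 ± 0.09, limma adjusted p = 0.0483). NRP1 stood at 7.17 and 6.85 in the HCT116 cocultures without and with the label and at 5.71 and 5.44 in Hke3, where it was under the 6.18 log2 limit, as it was on all 4 monoculture arrays.

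AMIGO2, a cell adhesion protein, had the largest interaction above 0, 1.32 ± 0.12 (limma adjusted p = 0.0278). It stood at 7.43 and 8.09 in the HCT116 cocultures and at 7.18 and 7.65 in Hke3, and at 7.90 and 7.01, and 7.65 and 7.01, in the monocultures. All 3 genes that passed 1.5-fold upward in both monoculture pairs (CYP24A1, FN1 and SERINC2) and the 1 that passed it downward (AMIGO2) had the opposite sign in both coculture pairs. These 4 are 0.0302% of the genes tested. SERINC2, of a family of serine incorporators, differed by 0.60 and 0.68 in monoculture and by -0.37 and -0.80 in coculture, and its interaction of -1.22 missed the threshold (limma adjusted p = 0.0571). A dimmer probe set of SERINC2 gave a mean coculture difference of 0.167.

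The other interactions above 0 were those of F3 (1.17 ± 0.13), LCN2, a lipocalin that binds bacterial siderophores (1.14 ± 0.12), EMP1 (1.10 ± 0.10), MAML2, a Notch coactivator (1.03 ± 0.09), SEMA6A (1.03 ± 0.11), GDA, a guanine deaminase (0.96 ± 0.10), and SUSD2, a membrane protein (0.90 ± 0.10), with limma adjusted p from 0.0275 for EMP1 and MAML2 to 0.0489 for F3, SEMA6A and SUSD2. LCN2 stood at 7.73 and 8.12 in the HCT116 cocultures and at 7.04 and 7.73 in Hke3, against 7.29 and 6.73, and 7.93 and 7.27, in the monocultures. By the probe set used, both lines showed the same pattern in each of these genes, higher under the label with THP1 and lower without. Other probe sets above background kept it for EMP1 and GDA but not for SEMA6A, SUSD2 and MAML2. In HCT116 and Hke3, 1 of SEMA6A gave 0.576 and 0.227 in coculture and 0.487 and 0.372 in monoculture. Another of SEMA6A gave 0.064 and 0.360, and -0.037 and 0.017. That of SUSD2 gave 0.246 and -0.021 in coculture, and that of MAML2 -0.107 and 0.606. The count of 11 was 0 without any 1 of the 4 monoculture arrays, 4 without either HCT116 coculture array and 1 without either Hke3 coculture array. With the labels of both coculture pairs turned, limma called 0 genes for the interaction, and 1042 had an unadjusted p under 0.05. For the 11 genes, whose signs were opposed, turning shrinks the interaction whichever labels are right, so their loss is no test of the labels.

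**Figure D3:**
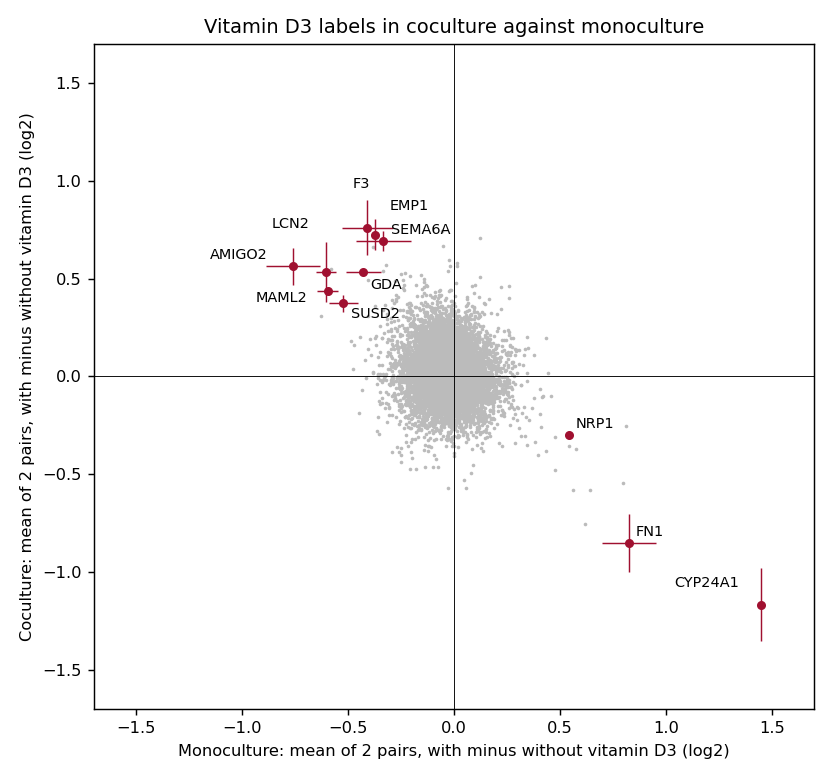
Mean difference in monoculture (x axis) against coculture (y axis) for the 13246 tested genes, both log2, labelled with minus without vitamin D3. Red points are the 11 genes whose interaction passed, with bars spanning the 2 lines' values. CYP24A1, FN1 and NRP1 lie at the lower right and the other 8 at the upper left.

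Over all genes the sign was opposed more weakly. The mean coculture difference and the mean monoculture difference had a Pearson r of -0.161 and a Spearman rho of -0.114 over genes, which share arrays and normalization within each mean. Within Hke3 the r was -0.221 and within HCT116 -0.048. The 50 genes with the highest differences in both monoculture pairs were lower in both coculture pairs for 20 and higher in both for 9, with medians of -0.096 in HCT116 and -0.104 in Hke3. The 50 with the lowest were higher in both coculture pairs for 26 and lower in both for 6, with medians of 0.101 and 0.208. Among all tested genes, 33.9% were higher and 26.2% lower in both coculture pairs.

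Genes of vitamin D handling other than CYP24A1 differed little. VDR, the receptor, stood at 8.21 and 8.48 in the HCT116 cocultures without and with the label and at 8.18 and 8.23 in Hke3, and another VDR probe set gave a mean difference of -0.245. CYP27B1, which makes the hormone from its precursor, differed by 0.08 and 0.14. The 25-hydroxylases CYP2R1 (0.12 and -0.15) and CYP27A1 (0.13 and -0.16) had opposite signs in the lines. Of 15 tested genes of vitamin D uptake, metabolism and the receptor complex, 5 were higher and 5 lower in both pairs. The shares of all genes were 33.9% and 26.2%. The list's medians were 0.012 and -0.028. The limma test called 0 in coculture, with an unadjusted p under 0.05 for 2 lower, against 3.92% of all genes.

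Known targets of the receptor did not share a direction. Of 29 listed targets 20 were tested, and 8 were higher and 5 lower in both coculture pairs, against 33.9% and 26.2% of all genes. The medians were 0.089 and 0.023 against 0.005 and 0.018 over all genes. In monoculture 6 were higher and 6 lower in both pairs, against 15.9% and 37.6% of all genes. The limma test called 0 of them in coculture and, for the interaction, CYP24A1, where it called 0.083% of all genes. In coculture 3 were higher and 4 lower at an unadjusted p under 0.05, against 8.03% and 3.92% of all genes. Trend and robust fitting called 1 higher and 2 lower, against 0.929% and 0.0981% of all genes. Among those lower in both pairs, besides CYP24A1, were KLK6, a secreted serine protease (-0.34 and -0.62), CYP3A4, a drug and steroid hydroxylase (-0.33 and -0.20), and TRPV6, an epithelial calcium channel (-0.20 and -0.21). KLK6 stood at 10.07 and 9.74 in HCT116 and at 11.39 and 10.77 in Hke3, and it was higher with vitamin D3 in monoculture, by 0.21 and 0.74. A second CYP3A4 probe set gave a mean of 0.168. Among those higher in both were IGFBP3, which binds insulin-like growth factors (0.64 and 0.42, with the HCT116 coculture at 5.57 log2 under the limit), and SPRY2, an inhibitor of growth factor signalling (0.32 and 0.32). A second IGFBP3 probe set gave -0.023 and 0.596, so by it IGFBP3 was not higher in both. In monoculture it gave 0.135 and 0.269, against -0.379 and -0.084 by the first. CAMP, an antimicrobial peptide gene and strong target in myeloid cells, differed by -0.13 and 0.01 in the cocultures, and it stood at 7.20 and 12.61 in THP1 without and with vitamin D3.

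**Figure D4:**
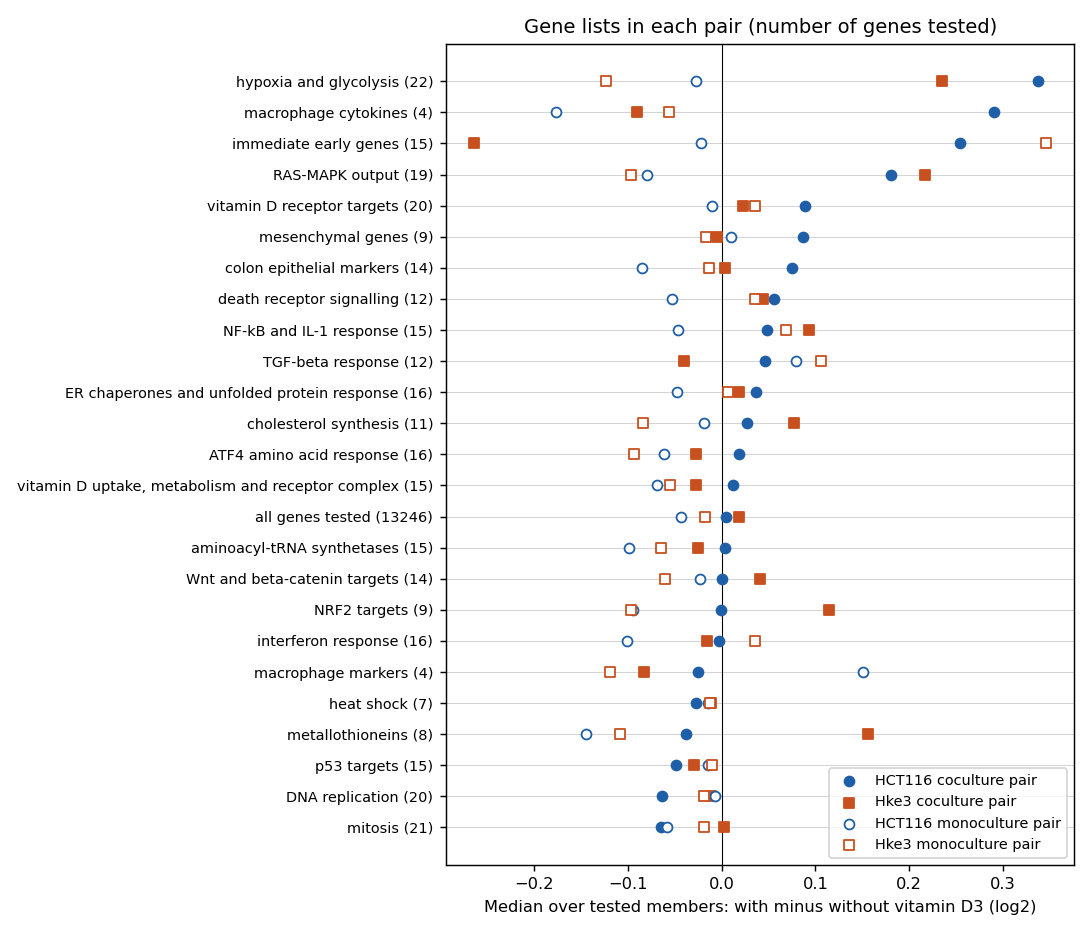
Median difference of each gene list in each of the 4 pairs, log2, labelled with minus without vitamin D3, with the number of genes tested in brackets. Filled symbols are coculture and open symbols monoculture, circles HCT116 and squares Hke3. Hypoxia and glycolysis genes have the highest median in HCT116, at 0.338, and immediate early genes lie on opposite sides of 0 in the coculture pairs, at 0.254 and -0.264.

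Hypoxia and glycolysis genes were higher under the vitamin D3 label in both cocultures, all 22 of the 22 tested. Over all genes the share higher in both pairs was 33.9%. Low oxygen stabilises the HIF transcription factors, which switch on glucose uptake, glycolysis and mitophagy genes. The list's medians were 0.338 in HCT116 and 0.235 in Hke3, and in monoculture they were -0.027 and -0.124, with 17 of the 22 lower in both monoculture pairs against 37.6% of all genes. None passed the limma test of the coculture arrays, though 18 had an unadjusted p under 0.05, and with a spread that follows the level and robust fitting 12 passed. Of all genes, 8.03% were higher at that unadjusted p and 0.929% passed higher with that fitting. None passed the test of the interaction. If the coculture labels are exchanged, the list is lower with vitamin D3 in all 4 pairs' medians.

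Among sensors and regulators of the pathway, EGLN3, the oxygen-sensing prolyl hydroxylase, stood at 7.36 and 7.66 in the HCT116 cocultures and at 8.73 and 9.17 in Hke3. NDRG1, a stress-induced gene, stood at 11.09 and 11.71 in HCT116 and at 12.70 and 13.07 in Hke3. ANKRD37 gave 10.15 and 10.71, and 11.40 and 11.77. In both lines the array labelled with vitamin D3 was the highest of the line's 4 for each of these 3 genes. ADM, the vasodilator adrenomedullin, differed by 0.34 and 0.33 and VEGFA, the angiogenic growth factor, by 0.26 and 0.24. The mitophagy receptors BNIP3 (0.34 and 0.32) and BNIP3L (0.40 and 0.30) differed by like amounts.

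In glucose use, SLC2A3 had the list's largest mean, 0.71 ± 0.09, and its other probe sets gave 0.891 and 1.04. It was dim, reaching 7.482 log2 by the first probe set and 6.795 and 7.270 by the others. The hexokinase HK2 differed by 0.34 and 0.23, PDK1, a kinase that keeps pyruvate out of mitochondria, by 0.39 and 0.26, and the enolase ENO2 by 0.31 and 0.37. LDHA differed by 0.05 and 0.09 and ALDOA by 0.11 and 0.05, at coculture levels between 13.90 and 14.55 log2, near the top of the scale. Other ALDOA probe sets gave means of 0.122 and 0.417, the latter at levels up to 12.07. A dimmer HK2 probe set gave a mean of -0.00548. The glycolytic and mitophagy genes of this account other than SLC2A3, and ADM and VEGFA, were chosen after their values were seen.

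**Figure D5:**
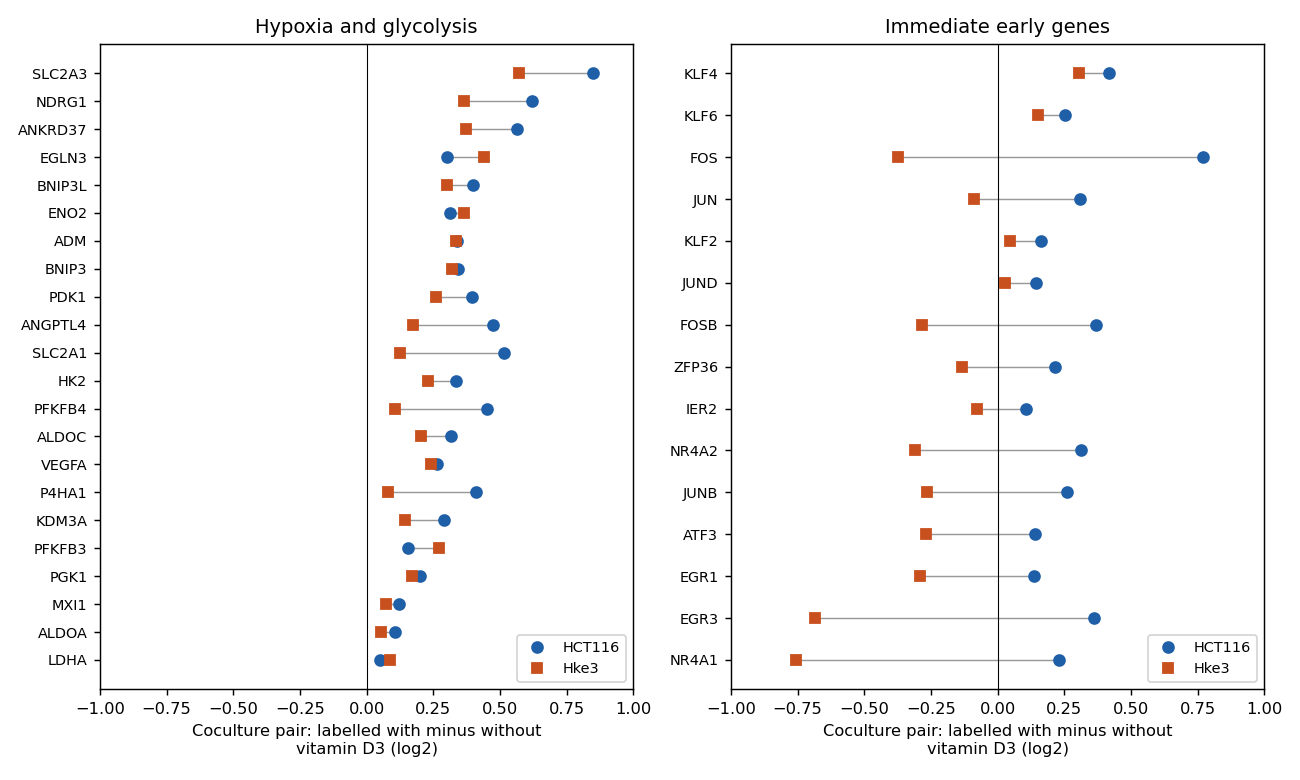
Differences of the hypoxia and glycolysis genes (left) and the immediate early genes (right) in the coculture pairs of HCT116 (circles) and Hke3 (squares), log2, labelled with minus without vitamin D3. Lines join the values of a gene. All 22 genes on the left lie above 0 in both lines, and 11 of the 15 on the right lie above 0 in HCT116 and below 0 in Hke3.

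Genes that report RAS-MAPK signalling were also higher, 17 of 19 in both pairs, against 33.9% of all genes. The output of this pathway includes growth factors of the EGF family and feedback inhibitors. The medians were 0.181 in HCT116 and 0.217 in Hke3 and -0.080 and -0.097 in monoculture. There 13 were lower in both pairs, against 37.6% of all genes. The ligand HBEGF stood at 9.07 and 9.49 in HCT116 and at 8.82 and 9.13 in Hke3, and TGFA, also an EGF receptor ligand, differed by 0.28 and 0.23. The receptor EPHA2 gave 0.28 and 0.25. Below 0 in both pairs was ETV5, an ETS factor (-0.04 and -0.32), and another ETV5 probe set gave a mean of 0.0256. None of the 19 passed the limma test in coculture or for the interaction. In coculture 9 were higher at an unadjusted p under 0.05, against 8.03% of all genes. Trend and robust fitting called 2 higher there, against 0.929% of all genes. A dimmer HBEGF probe set gave a mean of -0.114, and TGFA and ETV5 were chosen after their values were seen.

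Immediate early genes, transcription factors induced within minutes of a stimulus, divided the lines. All 15 tested were higher under the label in HCT116, where 51.6% of all genes were. In Hke3, where 56.1% of all genes were higher and 43.8% lower, 4 of the 15 were higher and 11 lower. The combination of higher in HCT116 and lower in Hke3 held for 17.6% of all genes. FOS stood at 10.00 and 10.77 in the HCT116 cocultures without and with the label and at 11.07 and 10.69 in Hke3. NR4A1, an orphan nuclear receptor, stood at 7.67 and 7.90 in the HCT116 cocultures and at 9.78 and 9.02 in those of Hke3. EGR3 gave 6.10 and 6.47, and 8.84 and 8.15. The Hke3 monoculture pair ran the other way from the Hke3 coculture pair, with a list median of 0.346, and FOS and NR4A1 were 0.56 and 0.41 higher there with vitamin D3. KLF4, an epithelial differentiation factor, was higher in both lines (0.42 and 0.30). With 1 array per condition the difference between the lines has no test. Limma called 0 of the mean differences (2 higher at an unadjusted p under 0.05, and 1 called higher with trend and robust fitting). The shares of all genes were 8.03% and 0.929%. EGR3 was chosen after its values were seen, and other NR4A1 and EGR1 probe sets gave means of 0.145 and 0.184 against -0.26 and -0.08. In HCT116 and Hke3, that EGR1 probe set gave 0.205 and 0.164, so it did not divide the lines, while another gave 0.119 and -0.464. That NR4A1 probe set gave 0.440 and -0.149, and another gave -0.095 and 0.001.

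Some of the largest differences in 1 line were smaller in the other, with the same sign. In Hke3, TCN1, which binds vitamin B12, stood at 6.92 and 5.52 without and with the label, and in HCT116 at 6.04 and 5.93. GEM, a small GTPase, gave 10.62 and 9.74 in Hke3 and 9.39 and 9.18 in HCT116, and PADI3, a peptidylarginine deiminase, 8.62 and 7.71 in Hke3 and 6.71 and 6.46 in HCT116. All 3 were about 1 log2 unit higher with vitamin D3 in the Hke3 monoculture, by 1.04, 1.05 and 1.01. CPA4, a carboxypeptidase, went the other way, at 7.76 and 8.90 in the Hke3 cocultures and 0.70 lower with vitamin D3 in the Hke3 monoculture. IL15, a cytokine for lymphocytes, gave 6.07 and 6.85 in the Hke3 cocultures, and its monoculture differences were 0.01 in both lines. In HCT116, PTGR2, a prostaglandin reductase, gave 6.06 and 6.89 and the serpin SERPINA4 gave 6.77 and 5.91, with differences of 0.31 and -0.20 in Hke3.

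Other genes always named and other lists gave mostly smaller values. SNAI1, which represses E-cadherin, differed by -0.17 and -0.16, the Wnt feedback gene AXIN2 by -0.21 and 0.03 (0.0349 on average with another probe set), and IL1B, the cytokine, by -0.18 and -0.15. Medians of Wnt and beta-catenin targets were -0.000 and 0.041, and those of NF-kB and IL-1 response genes 0.048 and 0.093. Among cholesterol synthesis genes 8 of 11 were higher in both pairs and 0 lower, against 33.9% and 26.2% of all genes. Their medians were 0.027 and 0.077. STARD4, a sterol carrier, differed by 0.36 and 0.20 and INSIG1, which restrains sterol synthesis, by 0.29 and 0.16. Of 21 mitosis genes 10 were lower in both pairs, where 26.2% of all genes were, with medians of -0.065 and 0.002. The limma test called 0 genes of each of these 4 lists. At an unadjusted p under 0.05 it held 1 Wnt, 3 NF-kB and IL-1, 3 cholesterol and 0 mitosis genes higher, and 0, 1, 0 and 2 lower. Tested were 14 Wnt and 15 NF-kB and IL-1 genes, and the shares of all genes were 8.03% higher and 3.92% lower. The 4 macrophage cytokine genes tested had medians of 0.291 in HCT116 and -0.091 in Hke3. Of these, 2 were higher in HCT116 and lower in Hke3, as were 17.6% of all genes. Of 8 metallothionein genes, which bind zinc and copper or regulate their handling, 5 were lower in HCT116 and higher in Hke3, as were 22.2% of all genes, with medians of -0.038 and 0.156.

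Colon epithelial markers were high and macrophage markers low on all 8 colon cancer arrays. Of 17 colon epithelial markers 14 exceeded 6.18 log2 on each of them, with the keratin KRT18 at 14.03 to 14.23. Of 16 macrophage markers 3 did so on 7 arrays, and 4 on the Hke3 coculture labelled with vitamin D3. Their summed linear intensity lay between 709.9 and 772.7 on the colon cancer arrays, against 5.182e+04 and 6.823e+04 in THP1. SRGN, a proteoglycan of blood cells and the brightest of these markers in THP1 at 13.90 and 14.05, was 4.42 and 4.37 in the HCT116 cocultures and 4.90 and 6.28 in Hke3. Its other probe sets, under 6.18 log2 on all 8 arrays, differed by 0.204 and -0.290 in the Hke3 coculture pair. In that pair CSF1R differed by -0.207, AIF1 by -0.212 and LAPTM5 by 0.041. The marker CD14 lay between 5.24 and 5.64 on all 8 arrays. The part of THP1 RNA in the Hke3 differences was not tested. In bulk RNA, fewer cells and less RNA per cell cannot be told apart. The 3′ minus 5′ difference of the ACTB probe sets, which grows as RNA degrades, was 0.164 and 0.232 in the HCT116 cocultures without and with the label and 0.616 and 0.561 in Hke3. In the monocultures, alone and with vitamin D3, it was 0.296 and 0.249 in HCT116. It was highest in the Hke3 monocultures, at 0.941 and 0.72, and these arrays enter the interaction. The part of RNA quality in the gene differences was not tested.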

How the data were processed

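RNA was measured on 10 one-colour Affymetrix arrays of 54675 probe sets. Per the submitters' processing notes, the authors deposited log2 values made with RMA through the package affy, whose versions are not given in the sources used here. RMA quantile-normalizes arrays, so a shift shared by most genes is not seen. Array medians lay between 6.15 and 6.21 log2.

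Arrays were grouped by title. Symbols came from the platform annotation: 41097 probe sets name 1 gene, 1801 several and 11777 none, and only the first were used. Each gene was represented by the probe set with the highest mean over the 8 colon cancer arrays. It was tested where 1 of these arrays exceeded the median of all values. The limma package 3.58.1 (R 4.3.3; lmFit and eBayes) fitted the differences, two-sided, with Benjamini-Hochberg adjustment over 13246 genes and a threshold of 0.05. The cell line was the block in coculture. The interaction fit held cell line, coculture, their interaction, vitamin D3 and vitamin D3 by coculture. Values after ± are limma's moderated SE, in which each gene's spread is drawn towards that of all genes. With 1 residual degree of freedom and a prior of 3.69 in coculture, most of that spread is borrowed. Arrays carry no counts, and their number limits the precision. Because no label names separate cultures, p-values measure only the spread between these arrays. In coculture that spread is how far the vitamin D3 difference varied between HCT116 and Hke3, not between repeats of a line. The interaction fit uses the same spread in coculture and in monoculture.

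The rule named vitamin D genes always, the 10 smallest p in each direction, the 12 most shared differences in each direction, the 8 largest in each pair, the interaction calls and up to 4 members per list. The members, the 24 gene lists and the rule were chosen with earlier results of these data known. The fits were tested on simulated data with 200 changed genes. Alternatives were other filters, probe set choices, scaling (median centring, cyclic loess), trend and robust fitting, a fold minimum, all 8 arrays, no cell line term, each array left out and, added later, turned labels. Promoter and motif positions came from RefSeq on GRCh38.p14. Figures used matplotlib 3.10.9 in Python 3.11.15.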

Additional observations from a re-analysis of the deposited data

Results flagged for a closer look

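Between monoculture and coculture, 11 genes differed in their vitamin D3 difference by limma's interaction test. The difference in coculture minus that in monoculture was -2.62 for CYP24A1, -1.68 for FN1 and -0.84 for NRP1. It was 1.32 for AMIGO2, 1.17 for F3, 1.14 for LCN2, 1.10 for EMP1, 1.03 for both MAML2 and SEMA6A, 0.96 for GDA and 0.90 for SUSD2. The vitamin D3 labels of the coculture arrays are in doubt, and 0 of these passed with those labels turned. Since all 11 had opposite signs in the 2 settings, turning shrinks each difference, so that 0 is no test of the labels.

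The lines differed in sign for 11 of 15 immediate early genes, all 11 higher in HCT116 and lower in Hke3, and for 5 of 8 metallothionein genes lower in HCT116 and higher in Hke3, against 17.6% and 22.2% of all genes. Neither difference between lines was tested, since each condition has 1 array.

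The THP1 pair, used in none of the comparisons, stood apart in 3 vitamin D targets. With vitamin D3 minus alone, CYP24A1 was higher by 5.88, CAMP by 5.41 and CD14 by 5.47 log2, with no replicate.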

How the results depend on the processing

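The count of 0 genes called in coculture was the same in the other settings tried except trend and robust fitting, which called 136, and the fit of all 8 colon cancer arrays with 1 coculture array left out, which gave 0 to 1. The 11 interaction calls were 1 when dim genes were kept, 96 when the filter was raised to the 75th percentile, 2 when probe sets were tested singly, 5 with median-centred arrays, 5 with cyclic loess, 235 with trend and robust fitting, 1 at a minimum of 1.5-fold, 0 with the coculture labels turned, and 0 to 4 when 1 array was left out, a fit that assumes the lone array varies like the others. The cause was not tested. The 6 genes past 1.5-fold in both pairs were 16 probe sets when these were counted singly, and 0 at 2-fold.

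Of 84 named genes, 0 turned sign under cyclic loess. Of 63 other probe sets of 36 of these genes, 52 kept the sign and 11 turned it: SERINC2 0.167, HK2 -0.00548, HBEGF -0.114, ETV5 0.0256, NR4A1 0.145, EGR1 0.184, VDR -0.245, CYP2R1 0.0764, CYP3A4 0.168, AXIN2 0.0349 and LAPTM5 0.138. The arrays are paired by cell line, and without that term 0 genes were called in coculture. The labels number no replicates, so there is no block by replicate number. Levels near 6.18 log2 have compressed differences.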

Other observations

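Further genes are given as values of the coculture pairs. IL18, a cytokine of epithelial cells, differed by 0.29 and 0.32 (labelled with minus without vitamin D3, HCT116 and Hke3), and by -0.20 and -0.22 in the monocultures. The epithelial factor ELF3 differed by 0.34 and 0.23, the adhesion protein EPCAM by 0.19 and 0.20, and the intestinal homeobox gene CDX1 by -0.18 and -0.16. ITGB4, the integrin subunit of hemidesmosomes, differed by 0.40 and 0.74 in the cocultures and by -0.23 and -0.42 in the monocultures. Of its other probe sets above background, 3 gave mean coculture differences of 0.525, 0.515 and 0.160. SKIL, a repressor of TGF-beta signalling, gave 0.55 and -0.24. None of these passed limma's test. Of 12 death receptor signalling genes 8 were higher in both coculture pairs, as were 33.9% of all genes. Of 16 interferon response genes 7 were lower in both, and of 20 DNA replication genes 9, as were 26.2% of all genes.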
